A study of Mus musculus with 15 samples.

Results

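Endothelial and vessel genes are here 42 genes taken from a list of what blood vessel cells are known to express. The rule for membership uses no measured level, but the list was drawn up with earlier results of these data known. They comprised 8 junction and surface adhesion genes, 12 receptors, 7 ligands, 6 transcription factors, 7 genes of the capillary surface, of enzymes and of secreted proteins, and 2 pericyte genes. All 42 had a probe on the array, out of 19057 genes in all, and each was read from its probe of the highest mean signal. Of these, 39 gave signal above noise in at least 5 arrays and could be tested. The other 3, the sphingosine 1-phosphate receptor S1pr1, the transcription factor Erg and the ligand Apln, did not and enter only the mean over the genes.

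RNA of tibialis anterior muscle from 15 male C57BL/6 mice of 8 to 10 weeks was measured on Illumina bead arrays, 1 array per mouse and 5 per label. Mice labelled Ctrl received PBS, and mice labelled Dox received 15 mg/kg of doxorubicin, an anthracycline drug that damages DNA. Mice labelled Dox + sACVR2B were given doxorubicin at that dose too, and 48 hours earlier 10 mg/kg of sACVR2B-Fc, a soluble form of an activin receptor that captures ligands such as myostatin. All muscles were taken 20 hours after the last injection, so the values describe an acute response in whole muscle and not in isolated vessels.

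Capillaries run along each muscle fibre. Their endothelial cells are held together by junction proteins such as VE-cadherin, and they are kept in a quiescent state by angiopoietin signals through the receptor Tek. Muscle fibres make Vegfa, a growth factor that acts on endothelial cells through the receptors Kdr and Flt1 with Nrp1 as a co-receptor. Endothelial cells in turn make Pdgfb, which keeps pericytes on the vessel wall. In whole muscle RNA, fewer cells of a type and less RNA per cell cannot be told apart.

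The labels need a word before the results. Cdkn1a, the gene of the p53 target p21 that halts the cell cycle, is not among the vessel genes. It had a signal of 1000 or more in 10 arrays and under 1000 in 5. The 10 arrays were Ctrl 1, 4 and 5, all Dox arrays except Dox 2, and Dox + sACVR2B 1, 2 and 3. The lowest signal in the first class was 2359 and the highest in the other was 358.8. In 6 of 15 arrays the class was not the one that the label of a DNA-damaging treatment implies. This class is made from a measured value. It is not a group of the study, and no array was moved to another label by it. The vessel genes were therefore compared by label, by class, and with both in 1 fit. The tissue itself matched its label, since 9 of 9 skeletal muscle fibre markers with a probe were above noise, at a mean log2 level of 14.30 to 14.60 in all arrays. Pecam1 and Cdh5, the surface markers that define endothelium, were above noise in 15 of 15 arrays.

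Levels are given as log2(signal + 50) throughout, and a fold is on that scale, which understates the fold of a dim gene. The mean level over the 42 genes was 9.26, 9.27, 9.14, 9.25 and 8.95 in Ctrl arrays 1 to 5. It was 8.89, 8.995, 8.95, 8.83 and 8.80 in Dox arrays 1 to 5. In Dox + sACVR2B arrays 1 to 5 it was 9.02, 8.98, 8.89, 9.03 and 8.99. Ctrl arrays 1 to 4 lay above every array of both doxorubicin groups, and Ctrl 5 lay among them. Ctrl 5 had the lowest level of the 5 Ctrl arrays for 23 of the 39 genes above noise.

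**Figure D1:**
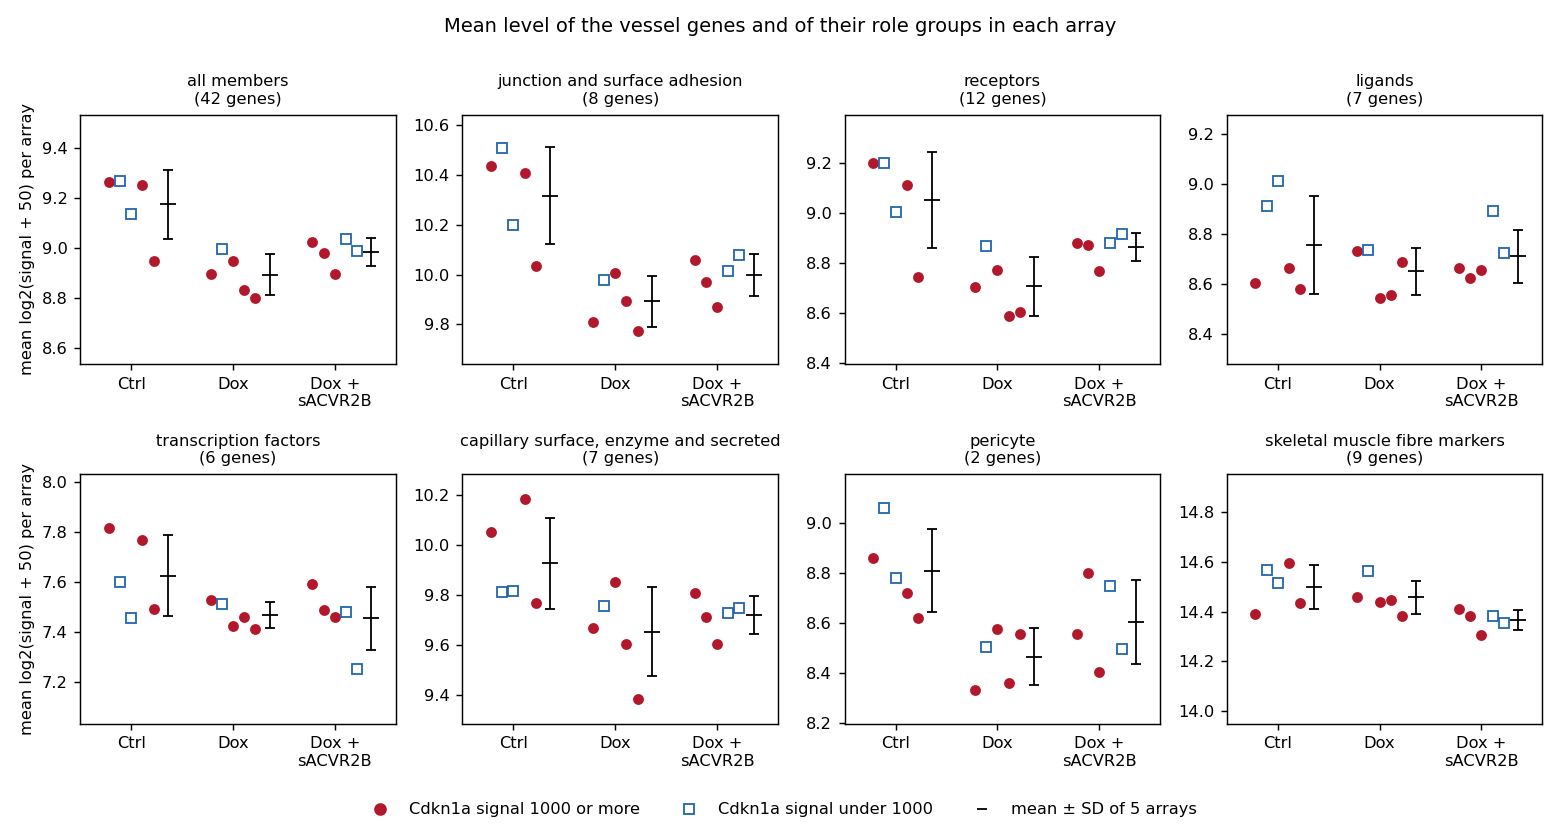
Mean log2(signal + 50) over the genes of each list (y axis, arbitrary log2 units, 1 unit high in every panel) in each array, by label on the x axis. Filled circles are arrays with a Cdkn1a signal of 1000 or more, open squares are those under 1000, and black bars are the mean ± SD of 5 arrays. The 42 genes average 9.17 in Ctrl and 8.89 in Dox, and the muscle fibre markers average 14.50 in Ctrl, 14.46 in Dox and 14.37 in Dox + sACVR2B.

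The group means were 9.17 ± 0.14 for Ctrl, 8.89 ± 0.08 for Dox and 8.98 ± 0.06 for Dox + sACVR2B (SD, n = 5). The mean level was thus 0.28 lower in Dox than in Ctrl and 0.19 lower in Dox + sACVR2B than in Ctrl, against a pooled SD of 0.10 within labels. The difference between Dox + sACVR2B and Dox, 0.09, was no larger than that SD. These means carry no test. The 9 muscle fibre markers differed from Ctrl by -0.04 in Dox and by -0.13 in Dox + sACVR2B, the latter larger than their pooled SD of 0.07, and 2 of the 9 were lower in Dox + sACVR2B at an unadjusted p under 0.05. The part of this in the vessel gene values was not tested. By Cdkn1a class the means were 8.98 ± 0.16 (SD, n = 10) for 1000 or more and 9.08 ± 0.12 (SD, n = 5) for under 1000, a difference of -0.10 that was smaller than the SD of the larger class. With label and class in 1 fit, the Dox to Ctrl difference was -0.27 and the class difference was -0.07. Within the class of 1000 or more, Dox and Ctrl differed by -0.29 (4 and 3 arrays), and within the class under 1000 by -0.21 (1 and 2 arrays).

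The difference between Dox and Ctrl was not even over the roles. It was -0.42 for the junction and surface adhesion genes, -0.35 for the receptors, -0.34 for the pericyte pair and -0.27 for the capillary surface, enzyme and secreted genes. For the transcription factors it was -0.16, and for the ligands -0.10, the latter inside the pooled SD of 0.14 within labels for that list. The scale understates differences of dim genes, and the lists differ in brightness. Mean signals were 29.2 for Tal1 and 38.4 for Fli1 among the transcription factors, and 35.9 for Dll4 and 40.9 for Angpt1 among the ligands. The dimmest junction gene, Icam2, had 317. But the receptors hold Kdr at 11.7, and the ligands hold Vegfa at 4070. The part of brightness in this order was not tested. Within the class of 1000 or more, Dox and Ctrl differed by -0.42 for the junction genes, -0.35 for the receptors and -0.28 for the pericyte pair. Within the class under 1000, with only 1 Dox array, these were -0.37, -0.24 and -0.42. For the capillary, transcription factor and ligand lists the differences were -0.37, -0.235 and 0.01 in the first class. In the other class they were -0.06, -0.02 and -0.23. The ligands were the list that differed most by class in the fit with both, at -0.22, where the junction genes differed by -0.08 and the receptors by -0.10. Among the ligands, Vegfa (-0.935) and Pdgfb (-0.412) were lowest by class. The median of the 6 above noise was -0.13, and 1 of them lay above 0.

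RefSeq promoter windows of mouse build GRCm38.p6, from 250 bases before to 50 after a start, were on hand for 21 of the 42 genes. They were searched on both strands for AGGAAG, a core bound by ETS factors such as Erg and Fli1, and for ACAAT, a core bound by SOX factors such as Sox7, Sox17 and Sox18. The letters AGGAAG stood in 12 of 27 windows of the vessel genes (44.4%), beside 35.4% of 32851 windows of all genes, and ACAAT in 22.2% beside 31.0%. The cores do not overlap in sequence. A match is a description of letters, not a bound site. Shown are the 250 bases before the start, 5′ to 3′ on the gene's strand, with both cores in capitals, for 4 genes that the comparisons turn on. Tek and Notch4 have the smallest p by label among genes with a window, and Vegfa and Flt1 have the smallest by Cdkn1a class. Tek lies at chr4:94739039-94739288 (+), Notch4 at chr17:34564045-34564294 (+), Flt1 at chr5:147726012-147726261 (-) and Vegfa at chr17:46032378-46032627 (-).
Tek: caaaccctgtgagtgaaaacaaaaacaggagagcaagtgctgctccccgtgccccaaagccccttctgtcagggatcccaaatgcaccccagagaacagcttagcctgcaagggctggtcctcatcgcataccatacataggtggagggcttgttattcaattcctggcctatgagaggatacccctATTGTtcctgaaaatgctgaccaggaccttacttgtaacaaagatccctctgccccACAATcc
Notch4: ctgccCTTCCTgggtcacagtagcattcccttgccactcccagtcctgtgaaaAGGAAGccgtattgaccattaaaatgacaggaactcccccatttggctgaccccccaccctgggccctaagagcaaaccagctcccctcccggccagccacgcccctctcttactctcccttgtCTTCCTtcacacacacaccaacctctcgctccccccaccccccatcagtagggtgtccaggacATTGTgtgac
Flt1: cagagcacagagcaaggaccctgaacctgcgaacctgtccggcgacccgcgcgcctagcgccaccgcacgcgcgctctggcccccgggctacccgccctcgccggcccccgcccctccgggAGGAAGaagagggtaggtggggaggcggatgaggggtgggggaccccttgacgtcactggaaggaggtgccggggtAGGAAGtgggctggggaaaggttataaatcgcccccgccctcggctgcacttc
Vegfa: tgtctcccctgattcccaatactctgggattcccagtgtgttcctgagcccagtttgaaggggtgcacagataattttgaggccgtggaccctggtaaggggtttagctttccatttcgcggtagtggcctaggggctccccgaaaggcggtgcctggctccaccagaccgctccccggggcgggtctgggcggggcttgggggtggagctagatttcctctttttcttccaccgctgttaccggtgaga
Notch4 held AGGAAG 3 times and ACAAT once in this stretch, Flt1 held AGGAAG 2 times and Tek held ACAAT 2 times. Vegfa held neither.

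Of the 39 genes above noise, 34 had a lower mean level in Dox than in Ctrl and 5 a higher one, with a median log2 difference of -0.32. Over all 21307 probes above noise the median was 0.01, and 48.1% of the probes lay below 0. After Benjamini-Hochberg adjustment over all probes limma called 0 of the 39 genes, where it called 0% of all probes. The smallest adjusted p of any probe was 0.208 from limma. The study reported Foxo1 and REDD1, which are not vessel genes, as passing for Dox against Ctrl in its own analysis of these arrays. At an unadjusted p under 0.05, 19 of the 39 genes (48.7%) were lower in Dox and 0 were higher, beside 5.2% of all probes that were lower at that threshold. Many of the genes varied together, so these are not separate results. Over the 15 arrays the means of the junction genes and the receptors correlated at 0.94. Single genes correlated with the mean of the other members at -0.49 (Angpt1) to 0.91 (Cdh5). Of the 10 arrays compared, 4 (Ctrl 1, 4 and 5 and Dox 2) had the Cdkn1a class that their label does not imply.

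**Figure D2:**
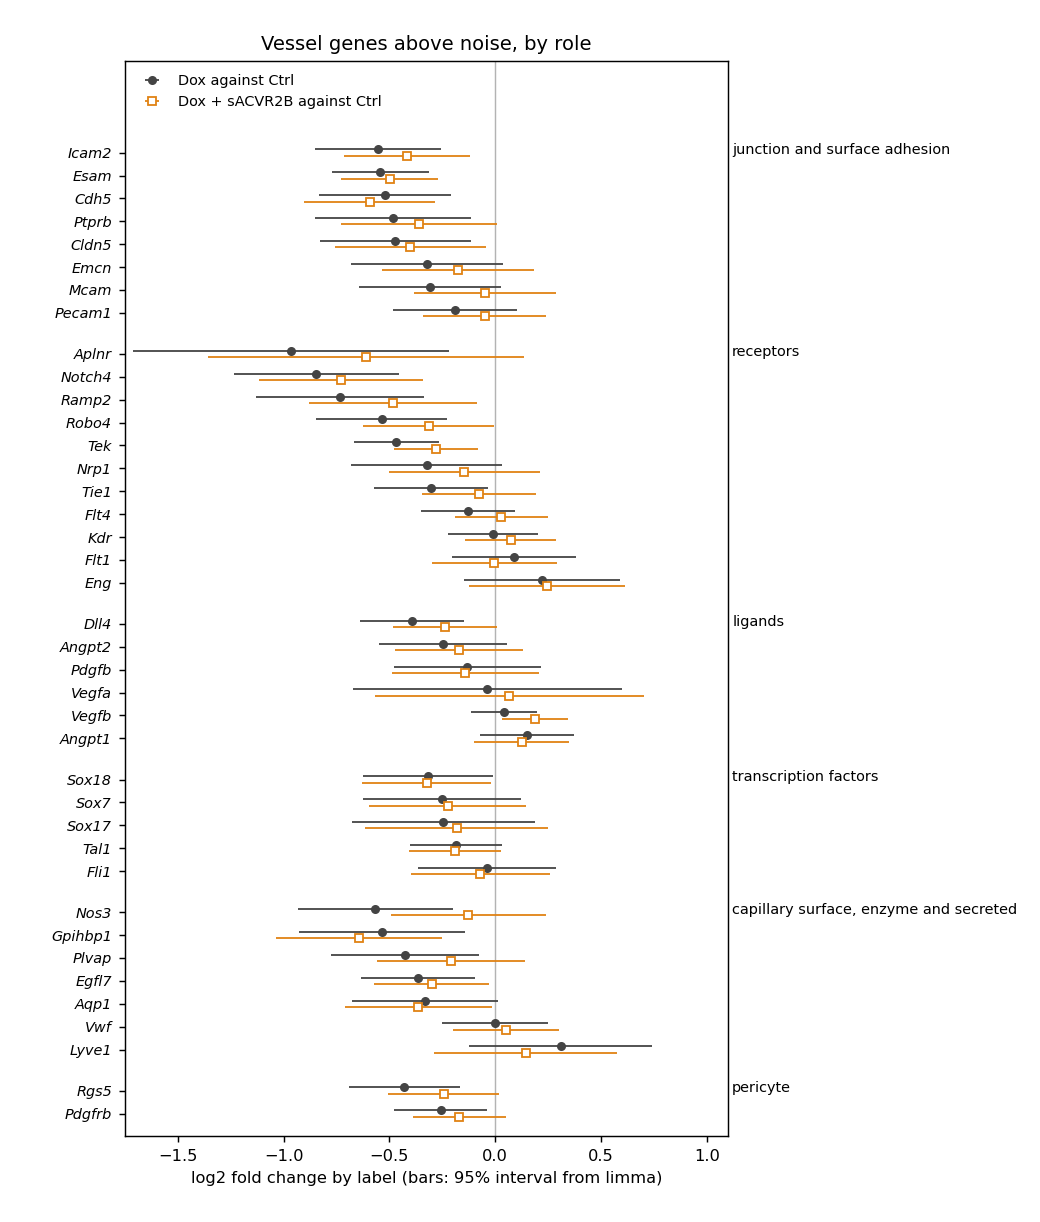
Log2 fold change of each of the 39 vessel genes above noise, for Dox against Ctrl (filled circles) and Dox + sACVR2B against Ctrl (open squares), with the 95% interval from limma on the x axis and the genes grouped by role on the y axis. Both comparisons use the same 5 Ctrl arrays. Of the 39 genes, 34 lie below 0 in the first comparison and 31 in the other.

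All 8 junction and surface adhesion genes had a lower mean in Dox than in Ctrl, from -0.56 for the adhesion molecule Icam2 to -0.19 for Pecam1, and 5 of them had an unadjusted p under 0.05. Esam, an adhesion molecule of endothelial tight junctions, had the smallest p. Its level was 11.56, 11.42, 11.30, 11.73 and 11.24 in the 5 Ctrl arrays, 10.98, 11.06, 11.07, 10.78 and 10.66 in the Dox arrays, and 10.94, 11.03, 10.92, 10.79 and 11.08 in the Dox + sACVR2B arrays. Every array of either doxorubicin group lay below every Ctrl array. The log2 difference between Dox and Ctrl was -0.54 ± 0.11 (SE), a level 1.46 times lower (95% interval 1.24 to 1.71), with an adjusted p of 0.208 from limma.

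Cdh5 encodes VE-cadherin, the adhesive protein of adherens junctions. It was at 10.74, 10.93, 10.57, 11.05 and 10.12 in the Ctrl arrays, at 10.12, 10.45, 10.23, 10.09 and 9.92 in the Dox arrays and at 10.19, 10.08, 9.85, 10.12 and 10.20 in the Dox + sACVR2B arrays. Ctrl arrays 1 to 4 were above all others, and Ctrl 5 fell among them. The difference of Dox + sACVR2B from Ctrl was -0.59 ± 0.15 (SE, adjusted p = 0.429 from limma) and that of Dox from Ctrl -0.52 ± 0.15 (SE, adjusted p = 0.336). Another Cdh5 probe gave -0.44 ± 0.12 (SE) for Dox against Ctrl. Cldn5, the tight junction claudin of endothelium, and the phosphatase Ptprb, which acts on Tek and VE-cadherin, differed by -0.47 and -0.48.

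Among the 11 receptors above noise, 9 had a lower mean in Dox than in Ctrl and 6 had an unadjusted p under 0.05. Tek, the angiopoietin receptor, was at 9.97, 10.06, 9.79, 9.91 and 9.76 in the Ctrl arrays and at 9.20, 9.67, 9.52, 9.33 and 9.43 in the Dox arrays. It was at 9.61, 9.70, 9.54, 9.55 and 9.68 in the Dox + sACVR2B arrays. All Ctrl arrays lay above all others, and the array with the highest level among those labelled Dox was Dox 2. The difference between Dox and Ctrl was -0.47 ± 0.09 (SE), a level 1.38 times lower (95% interval 1.2 to 1.59, adjusted p = 0.208 from limma). Esam and Tek were the only 2 of the 39 genes for which all Dox arrays lay below all Ctrl arrays, where this held for 0.526% of all probes. In the promoter stretch printed above, Tek carries 2 SOX cores.

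Notch4, a Notch receptor largely restricted to endothelium, had the next smallest p after these 2. It was at 10.78, 10.69, 10.09, 11.01 and 10.23 in the Ctrl arrays and at 9.77, 10.20, 9.91, 9.50 and 9.19 in the Dox arrays, so that Dox 2 lay above Ctrl 3 and the other 4 Dox arrays lay below every Ctrl array. The difference was -0.85 ± 0.18 (SE, adjusted p = 0.260 from limma), but a dimmer Notch4 probe gave only -0.26 ± 0.16 (SE). Ramp2, which makes the calcitonin-like receptor respond to adrenomedullin, differed by -0.73 and Robo4, a guidance receptor of endothelium, by -0.54. Another Robo4 probe gave -0.05. The endothelial receptor Tie1 differed by -0.30. Eng, a TGF-beta co-receptor, had a mean 0.22 higher in Dox, with a 95% interval of -0.15 to 0.59. The VEGF receptors Kdr and Flt4 were dim, with mean signals of 11.7 and 20.7, and differed by -0.01 and -0.13.

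Of the 7 capillary surface, enzyme and secreted genes, 4 had an unadjusted p under 0.05 and all 4 were lower in Dox. They were Nos3, which encodes endothelial nitric oxide synthase (-0.57), Gpihbp1, which holds lipoprotein lipase on the capillary wall (-0.54), Plvap, a protein of fenestral and caveolar diaphragms (-0.42), and Egfl7, a secreted endothelial matrix protein (-0.36). The water channel Aqp1 differed by -0.33 and Vwf, the clotting factor carrier stored in endothelial granules, by 0.00. Lyve1, the hyaluronan receptor of lymphatic endothelium, was higher in Dox by 0.31 (95% interval -0.12 to 0.74).

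The pericyte genes were Rgs5, a regulator of G protein signalling, and Pdgfrb, the receptor for Pdgfb. They differed between Dox and Ctrl by -0.43 and -0.26, both with an unadjusted p under 0.05. Of 13 further pericyte and smooth muscle genes above noise, 0 reached that threshold, and their median difference was -0.07. The 5 transcription factors above noise ranged from -0.32 for Sox18 to -0.04 for Fli1, and Sox18 alone had an unadjusted p under 0.05. Of the 6 ligands above noise that was so for Dll4, the Notch ligand of arterial and tip cells, at -0.39. Dll4 was dim, with a mean signal of 35.9, and its other probe gave -0.04.

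The comparison of Dox + sACVR2B with Ctrl used the same Ctrl arrays, so its values stand beside those above and are not a repeat of them. Here Ctrl 1, 4 and 5 and Dox + sACVR2B 4 and 5 had the Cdkn1a class that their label does not imply. Of the 39 genes, 31 had a lower mean in Dox + sACVR2B, with a median of -0.18, and limma called 0, beside 0% of all probes. At an unadjusted p under 0.05, 12 genes were lower, a share of 30.8% beside 3.81% of all probes, and Vegfb was higher. Esam, Tek, Notch4 and Gpihbp1 were lower in every Dox + sACVR2B array than in any Ctrl array, and 0.835% of all probes were. The Esam difference was -0.50 ± 0.11 (SE, adjusted p = 0.379 from limma).

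Between Dox + sACVR2B and Dox, labels that differ by the soluble receptor, no gene passed. Among the arrays compared, Dox 2 and Dox + sACVR2B 4 and 5 had the Cdkn1a class that their label does not imply. Of the 39 genes, 29 had a higher mean in Dox + sACVR2B and 10 a lower one, with a median of 0.09 where all probes had 0.00. The 2 sets of arrays overlapped for 39 of 39 genes. Limma called 0 genes, beside 0% of all probes, and 0 were lower at an unadjusted p under 0.05, beside 1.89% of all probes.

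Nos3 was the only gene with an unadjusted p under 0.05 in that comparison. It was at 7.94, 8.55, 8.30, 7.49 and 7.65 in the Dox arrays and at 8.68, 8.52, 8.11, 8.38 and 8.43 in the Dox + sACVR2B arrays. Dox 2 and Dox 3 lay within the range of the Dox + sACVR2B arrays and the other 3 lay below it. The difference was 0.44 ± 0.17 (SE, 95% interval 0.07 to 0.80, adjusted p = 0.996 from limma). Vegfb, a VEGF family ligand that binds Flt1, had the next smallest p. It was at 12.65, 12.52, 12.57, 12.52 and 12.53 in the Dox arrays and at 12.64, 12.78, 12.85, 12.68 and 12.58 in the Dox + sACVR2B arrays, a difference of 0.15 ± 0.07 (SE, adjusted p = 0.996 from limma). In the Ctrl arrays Vegfb was at 12.50, 12.56, 12.53, 12.50 and 12.49.

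By Cdkn1a class, limma called 5 of the 39 genes, a share of 12.8% beside 13.6% of all probes. Of these, 4 were lower in the class of 1000 or more, beside 6.59% of all probes, and 1 was higher, beside 7.01%. With the label in the same fit it called the same 5 and Pecam1, that is 15.4% of the genes beside 14% of all probes, 4 lower (6.63% of all probes) and 2 higher (7.4%). The share of vessel genes called was therefore near that of all probes in either fit, and only the identity of the genes is described here. They were the ligands Vegfa and Pdgfb, the receptors Flt1, Nrp1 and Aplnr, and the adhesion molecule Pecam1.

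Vegfa was 1.91 times lower in the class of 1000 or more with the label in the fit (log2 difference -0.94 ± 0.14, SE, adjusted p = 0.000498 from limma). Its level ranged from 11.02 to 12.04 with a median of 11.53 in the 10 arrays of that class. The other 5 arrays, Ctrl 2, Ctrl 3, Dox 2 and Dox + sACVR2B 4 and 5, had 12.56, 12.59, 12.59, 12.57 and 12.34. The classes did not overlap, under any label. The label coefficient of Vegfa for Dox against Ctrl in that fit was 0.15, with a 95% interval from 0.87 to 1.41 in fold. Another Vegfa probe gave a class difference of -0.84.

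Flt1, the receptor of high affinity for Vegfa that also acts as a decoy, was called as higher in the class of 1000 or more in both fits. Its level there ranged from 11.73 to 12.04 (median 11.84), and in the other class it was 11.40, 11.27, 11.51, 11.48 and 11.51, in the order of arrays given for Vegfa. These ranges did not overlap either. The difference was 0.42 ± 0.07 (SE), that is 1.33 times higher (adjusted p = 0.00144 from limma), and a dimmer Flt1 probe gave 0.34 without passing (adjusted p = 0.0919). Flt1 differed by 0.01 between Dox and Ctrl in the same fit.

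Nrp1, the Vegfa and semaphorin co-receptor, ranged from 10.01 to 10.73 (median 10.33) in the class of 1000 or more. In the other class it was 11.17, 10.75, 10.85, 10.84 and 10.80, above all of these. The difference was -0.45 ± 0.10 (SE, adjusted p = 0.00789 from limma), and both other probes for it were lower too, by -0.45 and -0.72. Nrp1 and Vegfa were the 2 genes of 39 with all arrays of 1000 or more below the others, beside 1.49% of all probes, and Flt1 was the 1 gene with all of them above, beside 1.99%.

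Aplnr, the apelin receptor of growing capillaries and veins, passed for the class and had a low mean in Dox as well. It was at 9.92, 10.74, 9.66, 9.32 and 8.39 in the Ctrl arrays, at 8.63, 9.39, 8.52, 8.34 and 8.32 in the Dox arrays and at 8.78, 8.31, 8.63, 9.80 and 9.47 in the Dox + sACVR2B arrays. Within each label the highest array was one of low Cdkn1a. In the fit with both, the class difference was -1.004 ± 0.198 (SE), a level 2.01 times lower (95% interval 1.5 to 2.68, adjusted p = 0.00328 from limma), and the Dox to Ctrl difference was -0.77 ± 0.23 (SE) without passing (adjusted p = 0.259). Its ligand gene Apln was below noise.

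Pdgfb ranged from 8.81 to 9.39 (median 9.17) in the class of 1000 or more and was 9.78, 9.73, 9.24, 9.60 and 9.29 in the other, with overlap. The difference was -0.41 ± 0.11 (SE, adjusted p = 0.0168 from limma). Pecam1 ranged from 10.09 to 10.74 (median 10.40) against 10.30, 10.11, 9.85, 9.99 and 10.26, again with overlap. Its difference was 0.33 ± 0.09 (SE, adjusted p = 0.0274), and 0.28 without the label in the fit (adjusted p = 0.0765), but another Pecam1 probe gave 0.06, so this call rests on 1 of 2 probes. The Pdgfb call was lost without Ctrl 2 (adjusted p = 0.0579) or Dox + sACVR2B 4 (0.0524). The Pecam1 call was lost without Ctrl 1, Ctrl 3, Dox 2 or Dox + sACVR2B 4, the largest adjusted p being 0.0989.

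**Figure D3:**
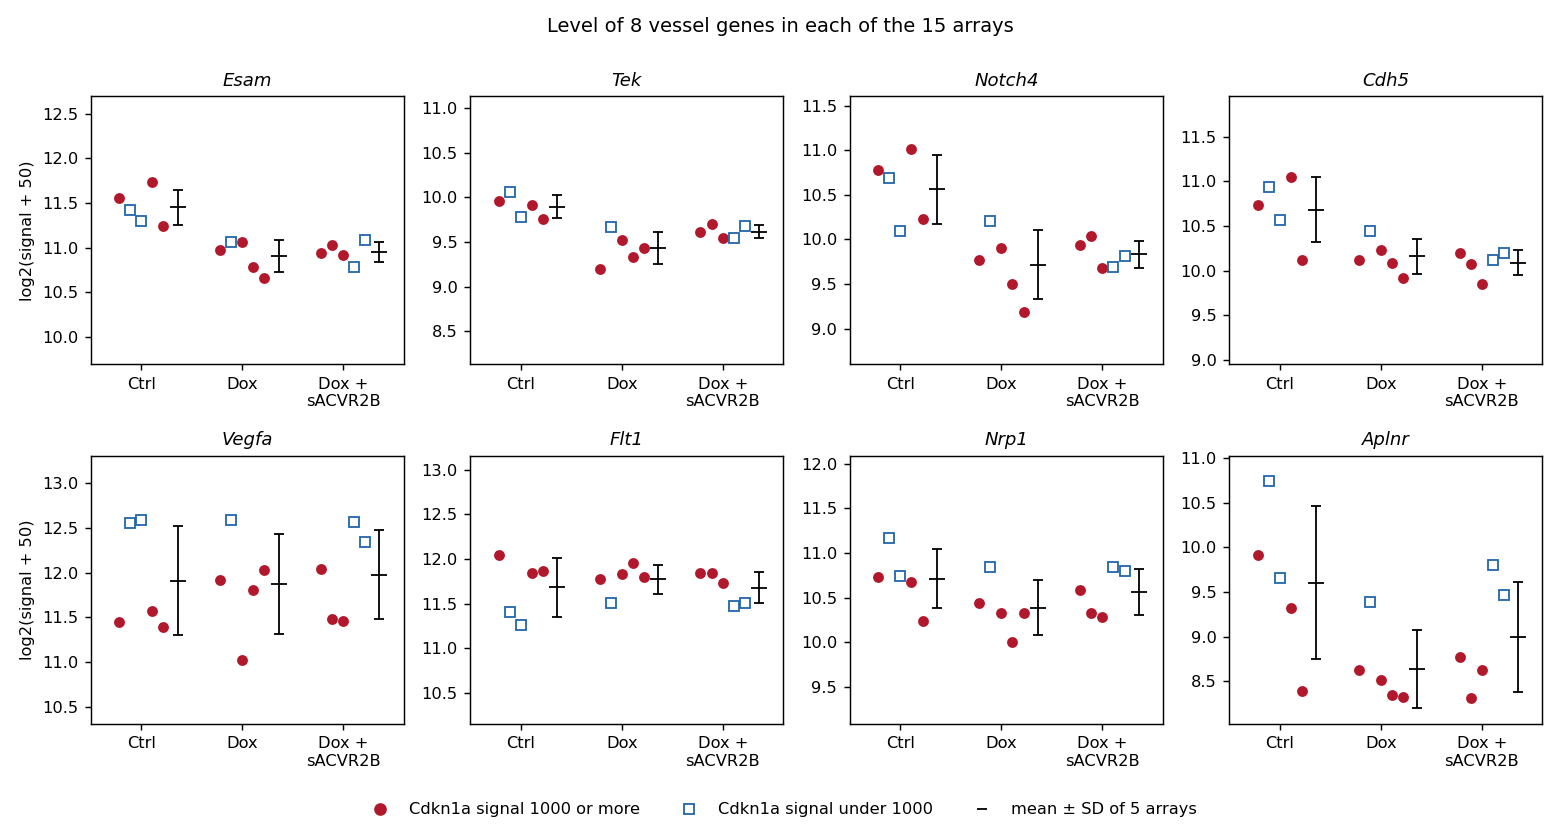
Level of 8 vessel genes, as log2(signal + 50) on the y axis (3 units high in every panel), in each array by label on the x axis. Symbols are as in the plot of mean levels. In the upper row the Ctrl arrays stand above most doxorubicin arrays whatever their Cdkn1a class, and in the lower row the open squares stand apart from the circles for Vegfa, Flt1 and Nrp1 under every label.

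With the class in the fit, the median label difference of the 39 genes stayed near that without it. Limma called 0 of 39 genes for Dox against Ctrl and 0 for Dox + sACVR2B against Dox, beside 0% of all probes each time. At an unadjusted p under 0.05, 20 genes (51.3%) were lower in Dox than in Ctrl, beside 5.8% of all probes, and the median over the 39 was -0.30 where it had been -0.32. Esam differed by -0.55 ± 0.11 (SE, adjusted p = 0.176 from limma) and its class difference was 0.02. Tek differed by -0.45 ± 0.09 (SE, adjusted p = 0.176), with a class difference of -0.09.

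**Figure D4:**
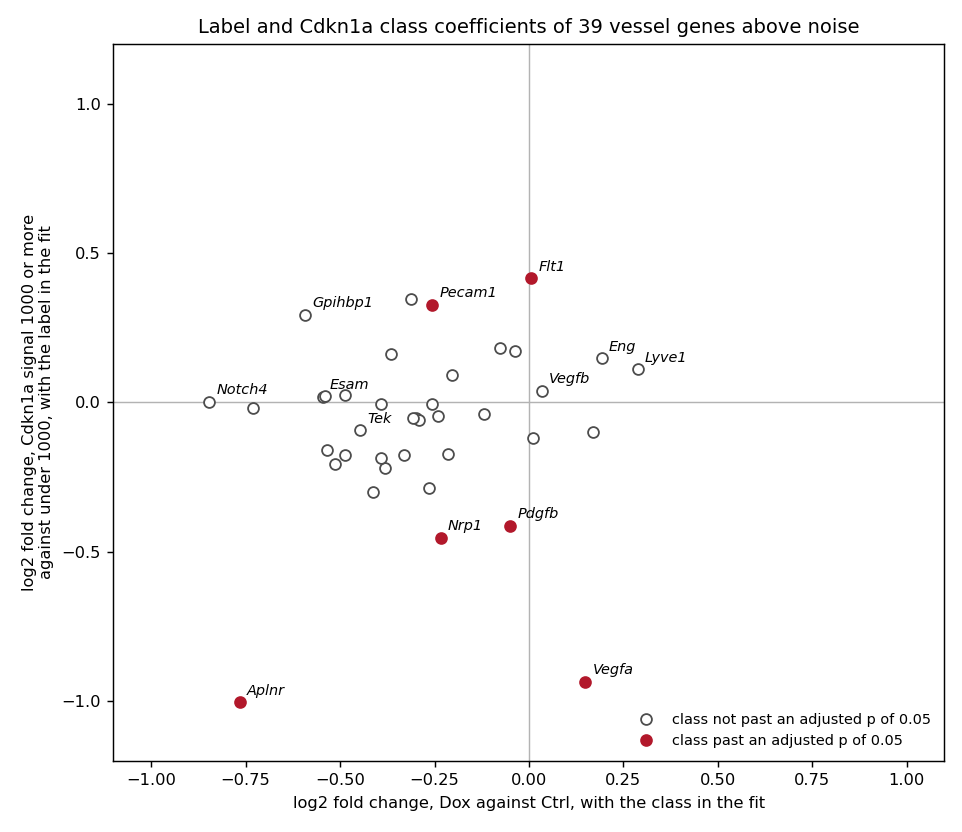
Coefficients of 1 fit with both factors for the 39 vessel genes above noise: the log2 fold change of Dox against Ctrl (x axis) and of the Cdkn1a class of 1000 or more against under 1000 (y axis). Filled points passed an adjusted p of 0.05 for the class. Vegfa and Flt1 lie near 0 on the x axis at -0.94 and 0.42 on the y axis, Notch4 and Esam lie near 0 on the y axis, and Aplnr is low on both.

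The fits by label were repeated on the 9 arrays whose Cdkn1a class is the one that the label implies, 2 of Ctrl, 4 of Dox and 3 of Dox + sACVR2B. In these arrays label and class cannot be told apart. Limma then called 12 of 39 genes for Dox against Ctrl, 11 lower and 1 higher, beside 8.86% of all probes. Of the 12, 5 were among those called for the class. The other 7 were Cdh5, Egfl7, Esam, Icam2, Notch4, Rgs5 and Tek. All 7 had an unadjusted p under 0.05 by label in the 15 arrays, but these include the 9, so the 2 fits are not independent. In the 9 arrays Tek differed by -0.56 (adjusted p = 0.0255) and Esam by -0.49 (adjusted p = 0.0412). For Dox + sACVR2B against Ctrl it called 4, Aplnr, Cdh5, Pdgfb and Flt1, beside 5.52% of all probes, and for Dox + sACVR2B against Dox 0, beside 0%. On the 10 arrays of 1000 or more alone, where the class cannot differ, it called 0 in each comparison, beside 0% of all probes. Esam differed there by -0.64 (adjusted p = 0.159) and Tek by -0.51 (adjusted p = 0.169) between Dox and Ctrl.

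Genes outside the 42 were counted in the same way. Their lists too were chosen with earlier results of these data known, and they were read from the same arrays. They are therefore no independent check, and the mean of the further endothelial genes correlated with that of the 42 at 0.82 over the 15 arrays. Of 35 further endothelial genes above noise, 25 had a lower mean in Dox than in Ctrl, and 12 (34.3%, beside 5.2% of all probes) were lower and 0 higher at an unadjusted p under 0.05. The 4 of smallest p were Rasip1, a regulator of Rap1 in vessel lumen formation (-0.43), the endothelial connexins Gja5 and Gja4 (-0.51 and -0.44) and the matrix protein Mmrn2 (-0.46). The mean over all 40 listed genes differed between Dox and Ctrl by -0.21 within the class of 1000 or more. Within the class under 1000, with 1 Dox array, it differed by -0.06. By class with the label in the fit, 9 of the 35 (25.7%) were called, beside 14% of all probes, 4 lower and 5 higher. Among them Ly6c1, a surface antigen of capillary endothelium, and the adhesion molecule Selp were higher (0.87 and 0.84), and Cd93 and the transcription factor Ets1 were lower (-0.72 and -0.57).

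In a list of 25 VEGF, angiopoietin, apelin and Notch pathway and hypoxia genes above noise, 10 (40.0%, beside 5.2% of all probes) were lower and 1 higher in Dox than in Ctrl at an unadjusted p under 0.05. They included Notch1 (-0.55), its target Hey1 (-0.59), the guidance molecule Sema6a (-0.49) and the lymphatic growth factor Vegfc (-0.52), and limma called 0. The mean over all 30 listed genes differed between Dox and Ctrl by -0.14 within the class of 1000 or more. Within the class under 1000, with 1 Dox array, it differed by 0.00. By class with the label in the fit, 4 of the 25 (16%) were called, near the 14% of all probes, so that only their identity is given. Pdgfa, the semaphorin receptor Plxnd1 and the matrix protein Thbs2 were lower (-0.40, -0.67 and -0.75) and Vegfd was higher (0.39).

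Markers of other cells were read beside these results. The mean of 8 fibroblast markers was 0.26 lower in Dox than in Ctrl, within its pooled SD of 0.34, and 0 of the 8 had an unadjusted p under 0.05 by label. By class with the label in the fit it was 0.45 lower in the class of 1000 or more, with summed signals of 18750 to 30666 against 28778 to 35925. Of the 8, 4 (50%) were called, all lower, beside 14% of all probes called and 6.63% called lower. The 8 class differences ranged from -1.04 to -0.02. The defining markers Col1a1, Col1a2 and Col3a1 were among the 4 and none of the 8 was at noise. The summed signal of 7 macrophage and leucocyte markers was 885 to 2338 in Ctrl arrays and 1021 to 2327 in Dox arrays, with 753 to 1929 in Dox + sACVR2B arrays, and Ptprc was at noise. That of 4 red cell markers was 13476 to 23396 in Ctrl, 6629 to 18324 in Dox and 7978 to 56800 in Dox + sACVR2B arrays, with Slc4a1 at noise. Dox + sACVR2B 5 alone held the 56800, and the other 4 arrays of that label reached at most 13883. Without that array limma called 0 vessel genes by label. The count was 0 with it too, so this count cannot show whether the array had an influence. The part of these cells in the vessel gene values was not tested.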

How the data were processed

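Biotin-labelled cRNA of 15 tibialis anterior muscles had been hybridised to Illumina mouse bead arrays. The authors deposited linear signal intensities after quantile normalization, and 33.96% of them are below 0, as after subtraction of a background, which the sources used here do not describe. Quantile normalization makes the sorted values of all arrays alike, so a shift of most genes one way cannot be seen. The deposited non-normalized table, of raw signal and detection p in 30 columns, was not used because its column names match no sample label.

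Probes were named from the platform's annotation, 34885 of 45281 with 1 gene, 18 with several and 10378 with none. The noise SD, 7.52, came from the negative values mirrored at 0, and probes with a signal over 12.4 in 5 arrays or more were kept (21307). Levels are log2(signal + 50). Kept probes were 11458 genes, and 43.82% to 43.93% of probes per array were above noise. The number of arrays limits the precision, and read depth does not apply.

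Limma (version 3.58.1, R 4.3.3) was fitted with label, with Cdkn1a class, and with both, on all 15 arrays, two-sided, with p-values adjusted by Benjamini-Hochberg across every kept probe. A gene was called at an adjusted p under 0.05, without the fold threshold of the study's methods. On simulated data of 21307 probes, 68% of probes changed 1.5-fold on log2(signal + 50) and 97% of those changed 2-fold between Dox and Ctrl were recovered with 8 false calls. Each simulated probe varied independently, and its change was the same in every Dox array. In the real arrays the Cdkn1a class cuts across the labels and probes can vary together, so these shares need not hold for them.

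Full values were given for members called in any of these fits and for the 2 of smallest p in each comparison of labels, and Notch4 was added after its values were seen. The genes, lists and tests were chosen with earlier results of these data known. Alternatives were other offsets, noise filters, probe choices, cyclic loess, array weights, another prior, a replicate block, the Cdkn1a level as a number, fits of fewer groups or arrays, and leaving out each array. Plots were drawn with matplotlib 3.10.9.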

Additional observations from a re-analysis of the deposited data

Results flagged for a closer look

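Among 120 sets of 5 arrays of 1 label, for the 39 genes above noise and their mean, 5 held an array far from the other 4 by Dixon's criterion, and chance gives about 1 in 20. Emcn, a sialomucin of capillary and venous endothelium, was at 9.86 in Dox 3, with the nearest other Dox array at 10.33. Aplnr was at 9.39 in Dox 2, the Dox array of low Cdkn1a, and the nearest other was at 8.63. Dll4, a dim gene, was at 6.55 in Dox 3 with the nearest at 6.21, and Vwf at 9.65 in Dox 3 with the nearest at 9.39. Lyve1 was at 6.998 in Ctrl 4, the nearest at 6.57. Of the 5, 3 fell on Dox 3, in which Emcn was low and Dll4 and Vwf were high.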

How the results depend on the processing

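On the 9 arrays whose Cdkn1a class is the one that the label implies, 12 genes were called for Dox against Ctrl and 4 for Dox + sACVR2B against Ctrl, and those 9 arrays confound label with class by construction. Every other alternative run left the count by label at 0, with or without the class in the fit, also when each array was left out in turn. With 1 array left out, the count by class ranged from 4 to 6, and from 4 to 7 with the label in the fit. Replicate numbers are shared by the labels, but same-numbered arrays did not deviate together (correlations of -0.382 to 0.348, 4 of 15 pairs over 0.1, and 1 of 15 arrays correlated best with its own number). With the replicate number as a replicate block the counts were 0 by label, 4 by class and 4 by class with the label, and Pdgfb (adjusted p = 0.0646) and Pecam1 (adjusted p = 0.101) were the 2 lost from the last. With the class alone Pdgfb was lost without Ctrl 2 (0.0593) or Ctrl 3 (0.053). Vegfa, Flt1, Nrp1 and Aplnr passed for the class under every alternative run. With the label in the fit, Pdgfb was lost without Ctrl 2 (adjusted p = 0.0579) or Dox + sACVR2B 4 (0.0524), and Pecam1 without Ctrl 1 (adjusted p = 0.0573), Ctrl 3 (0.0662), Dox 2 (0.0989) or Dox + sACVR2B 4 (0.0788) and with the median over its probes (0.163). The mean over the 42 genes differed between Dox and Ctrl by -0.338 to -0.258 with 1 array left out. No direction reversed. Genes under noise, S1pr1, Erg and Apln, could not be compared at this signal. Kdr had a mean signal of 11.7, below the threshold of 12.4, and passed it in 9 of 15 arrays. Flt4 (20.7), Tal1 (29.2), Dll4 (35.9), Fli1 (38.4) and Angpt1 (40.9) were dim as well.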

Other observations

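Probes other than the brightest were called by class with the label in the fit for 2 genes whose brightest probe was not, which was found after the values were seen. An Angpt1 probe was 0.36 higher in the arrays of 1000 or more (adjusted p = 0.0153 from limma), where the brightest gave -0.10. The brightest had a mean signal of only 40.9 and the called probe was dimmer still, so this call rests on a dim probe and the 2 probes differ in direction. A Gpihbp1 probe was 0.45 higher (adjusted p = 0.0159 from limma), where the brightest gave 0.29. Angpt1 encodes the ligand that activates Tek.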
